A study of Mus musculus with 2 samples.

Results

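The nuclear genes for subunits of oxidative phosphorylation are described here in cultured mouse hematopoietic stem cells, by respiratory complex, by treatment and by the level of the platelet chemokine gene Pf4. Members were the rows of the deposited gene table whose symbols begin with Ndufa, Ndufb, Ndufc, Ndufs, Ndufv, Uqcr, Cox4i, Cox5, Cox6, Cox7, Cox8 or Atp5, together with Sdha, Sdhb, Sdhc, Sdhd, Cycs and Cyc1. Of 96 matching rows, 8 assembly factor genes named Ndufaf and Cox7a2l, which acts in supercomplex assembly, were left out, so 87 of 32285 genes were members. Complex I had 37, complex II 4, complex III 9, cytochrome c 1, complex IV 19 and complex V, the ATP synthase, 17. Ndufa4 and Ndufa4l2 were counted with complex IV, to which their proteins belong.

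The cells were mouse hematopoietic stem cells, with blood as the tissue label. A suspension culture of 48 h was run with RO-3066 or with DMSO, and RNA of single cells was sequenced by a droplet method that counts transcript 3' ends with unique molecular identifiers (UMIs). The labels give no dose or target of the compound and no strain, age or number of mice. With 1 library for each treatment, no difference could be tested against the spread between cultures. Exact 95% intervals of single genes, shares of UMIs and folds hold only the error of counting UMIs. Those of medians take the genes of a set as independent and hold the uncertainty of the median, not the full spread of the genes. An interval of a percentage of cells takes the cells of 1 library as independent and says nothing of the spread between cultures.

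Oxidative phosphorylation passes electrons from NADH through complex I, or from succinate through complex II, to complex III, and cytochrome c carries them on to complex IV, which reduces oxygen. Complexes I, III and IV pump protons across the inner mitochondrial membrane, and complex V uses the return flow to make ATP. Most subunits are encoded in the nucleus and imported, while the mitochondrial genome encodes a small set of core subunits. Quiescent hematopoietic stem cells are known for low use of this pathway, which rises when they divide and differentiate. Several complex IV subunits have alternative isoforms that are used in particular tissues or at low oxygen.

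After filtering, 5833 DMSO cells with 173904078 UMIs and 3683 RO-3066 cells with 163097755 UMIs were kept. The libraries differed in depth: the median cell had 23955 UMIs in DMSO and 34656 in RO-3066. The libraries shared 7 cell barcodes. Of 12 stem cell markers, 9 reached 5 CPM (UMIs of a gene scaled to 1000000 UMIs per library) in DMSO and 10 in RO-3066, with summed levels of 486 and 608 CPM. Of 20 megakaryocyte markers, 16 and 17 did, with sums of 6597 and 6339 CPM. Pf4 alone gave 5119 and 4221 CPM of these sums. The others were higher in RO-3066, such as Nrgn (325 and 616 CPM) and Itga2b (177 and 276 CPM). The exceptions were Cd9 (358 and 352 CPM), Clec1b (9.67 and 7.41 CPM) and Gp6, and Gp6 and Tubb1 were barely detected. Erythroid markers summed to 213 and 468 CPM, of which Hbb-bt gave 199 and 448 CPM. Neutrophil and monocyte markers summed to 145 and 142 CPM. Sums were 25.9 and 32.3 CPM for endothelial and stromal markers, and 7.62 and 9.47 CPM for mast cell markers. Of 6 lymphoid markers, Cd3e, Igkc and Il7r were at 0 in both libraries and the sums were 0.104 and 0.135 CPM. The part of these differences in the results below was not tested.

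The sequences that precede the start sites of the members hold motifs known from nuclear genes of respiration. Of the 87 members, 70 were matched to RefSeq promoters (GRCm38.p6), with 75 windows of 300 bases, 250 before and 50 after the start. The binding motif of nuclear respiratory factor 1 (NRF1), spelled GCGC, any base and TGCGC and searched like the others on both strands, was in 24.0% of member windows and in 4.60% of all 32851 windows. The YY1 motif AANATGGCG was in 13.3% of member windows against 2.38% of all. The ETS motif CCGGAAGT was in 6.67% against 3.89%, the CCAAT box CCAAT in 42.7% against 37.4%, the E-box CACGTG in 9.33% against 7.15% and the TATA box TATAAA in 12.0% against 13.6%. Chosen after the Cycs promoter had been seen, a shorter NRF1 form, GCATGCGC, which overlaps the longer motif in some windows, was in 14.7% against 2.71%, and the cyclic AMP response element TGACGTCA in 6.67% against 1.79%. These are matches of letters, not measured binding.

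Shown here are 5 promoters, 5′ to 3′, for the genes on which the results turn or that carry the NRF1 motif, without bases that GENCODE annotates as UTR. Capitals mark matches to the NRF1 motif, its shorter form, the cyclic AMP response element or the CCAAT box, the last also as its reverse complement.
Cycs, chr6:50566570-50566819, minus strand: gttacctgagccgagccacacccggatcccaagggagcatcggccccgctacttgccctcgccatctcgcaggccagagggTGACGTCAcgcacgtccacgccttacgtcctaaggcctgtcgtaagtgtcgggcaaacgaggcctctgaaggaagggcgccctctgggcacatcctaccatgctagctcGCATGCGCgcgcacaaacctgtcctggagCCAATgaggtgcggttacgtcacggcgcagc
Ndufs5, chr4:123718203-123718436, minus strand: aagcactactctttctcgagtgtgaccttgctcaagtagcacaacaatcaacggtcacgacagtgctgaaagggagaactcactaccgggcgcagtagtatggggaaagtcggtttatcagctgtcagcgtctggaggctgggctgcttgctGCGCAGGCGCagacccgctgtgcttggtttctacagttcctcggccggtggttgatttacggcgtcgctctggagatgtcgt
Cox6a1, chr5:115348982-115349208, minus strand: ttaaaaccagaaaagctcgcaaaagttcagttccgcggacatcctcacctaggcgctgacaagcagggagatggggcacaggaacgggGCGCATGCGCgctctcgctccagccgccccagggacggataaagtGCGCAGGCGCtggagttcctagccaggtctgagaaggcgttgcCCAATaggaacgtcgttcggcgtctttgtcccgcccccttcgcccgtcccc
Cox5a, chr9:57520982-57521231, plus strand: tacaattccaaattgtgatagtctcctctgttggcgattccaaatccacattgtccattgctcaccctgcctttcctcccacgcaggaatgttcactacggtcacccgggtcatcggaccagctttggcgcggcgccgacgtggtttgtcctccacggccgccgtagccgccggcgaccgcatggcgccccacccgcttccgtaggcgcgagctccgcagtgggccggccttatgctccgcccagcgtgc
Cox6b2, chr7:4753095-4753225, minus strand: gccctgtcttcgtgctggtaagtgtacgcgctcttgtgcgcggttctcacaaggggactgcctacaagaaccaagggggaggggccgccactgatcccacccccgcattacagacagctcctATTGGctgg
Cycs, which had the lowest ratio of RO-3066 over DMSO, held the shorter NRF1 form, the cyclic AMP response element and a CCAAT box. Ndufs5 and Cox6a1 held the full NRF1 motif. Cox5a, which was higher in cells with more Pf4, held none of these matches in its window, and the printed bases of Cox6b2, the gene with the highest ratio, held a CCAAT box only. The 17 members with the full NRF1 motif had a median log2 ratio of RO-3066 over DMSO of -0.26, and the 51 measured members matched without it had -0.22.

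Members made up 3.76% of all UMIs in DMSO and 3.21% in RO-3066. The summed level in RO-3066 was 0.855 times that in DMSO (95% interval 0.854 to 0.856). Of the 87 members, 82 had a mean of at least 5 CPM over the libraries and enter the counts below. The median log2 ratio of RO-3066 over DMSO, on the scale of CPM plus 1, was -0.24 (-0.28 to -0.20) over these members. It was -0.01 over all 9082 genes with that minimum mean. These genes were not matched by level: the median DMSO level was 369 CPM over members and 27.4 CPM over all genes. With a minimum mean of 20 CPM, the median of all genes was -0.06, and 73 of 81 members were below 0. Below 0 were 73 of 82 members, against 51.0% of all genes. At least 1.2-fold lower were 36 members, where 16.1% of all genes were, and at least 1.2-fold higher were 3, where 18.7% of all genes were. At a fold of 1.5 there was 1 member lower, Cycs (all genes 2.0%), and 1 higher, Cox6b2 (all genes 4.55%). The lower levels were thus spread over many genes with small differences each, and the order of members by level was nearly kept between libraries (Spearman's rho 0.99 over 82 genes, a description). Ribosomal protein genes took 29.6% of DMSO and 33.0% of RO-3066 UMIs. With these genes left out of the total, the members' median was -0.17 with 69 of 82 below 0, and the median of all genes was 0.06. The share of all genes below 0 is not given for this total, nor for the minimum of 20 CPM.

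**Figure D1:**
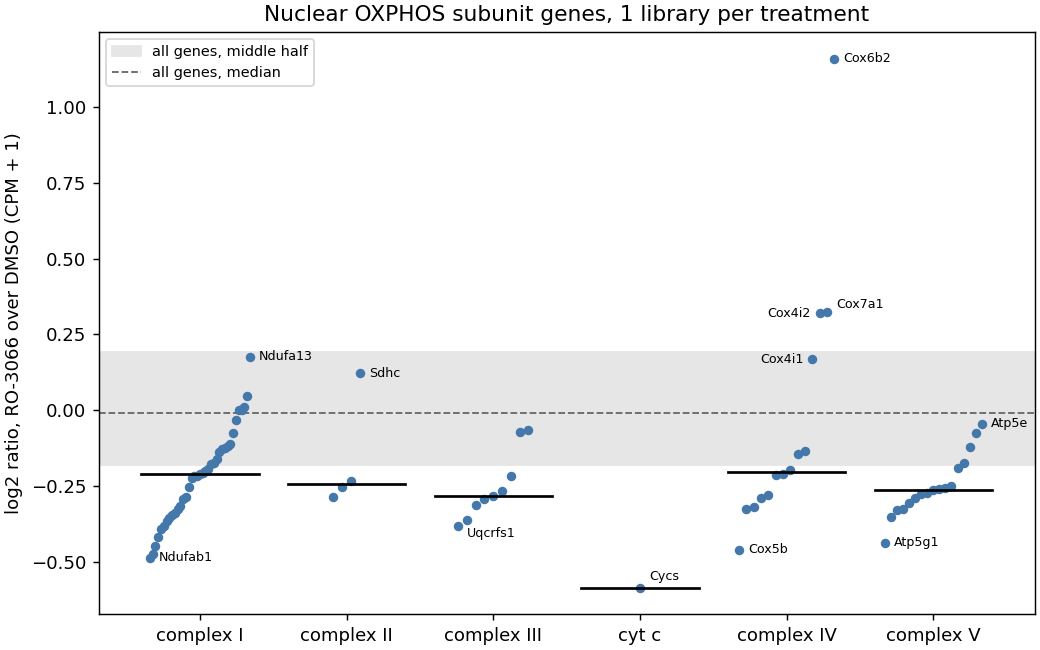
Log2 ratio of RO-3066 over DMSO (CPM plus 1) for the 82 measured members, each point a gene, in columns by complex with the median of each complex as a black line. The dashed line is the median of all 9082 genes and the grey band their middle 50%; most members lie below the dashed line, Cycs lies lowest at -0.59, and Cox6b2 stands apart at 1.16.

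The difference was seen in single cells as well as in sums. The member share of a cell's UMIs had a median of 3.74% over DMSO cells (quartiles 3.47% and 4.0%) and of 3.11% over RO-3066 cells (quartiles 2.79% and 3.43%). Only 9.64% of RO-3066 cells (355 of 3683, interval over cells of this library 8.70% to 10.6%) lay above the DMSO median. For complex III that share was 10.9%, for complex IV 10.3%, for complex V 10.5%, for complex I 14.1% and for cytochrome c 17.7%. Complex II, with few UMIs per cell, had 28.9%. Thinned to 10000 UMIs per cell, which left out 84 DMSO and 124 RO-3066 cells, the median cell held 375 member UMIs in DMSO and 311 in RO-3066. The spread over cells was wider than counting gives: the SD was 43.5 UMIs in DMSO, where counting alone gives 19.0, and 48.4 in RO-3066, where it gives 17.4.

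**Figure D2:**
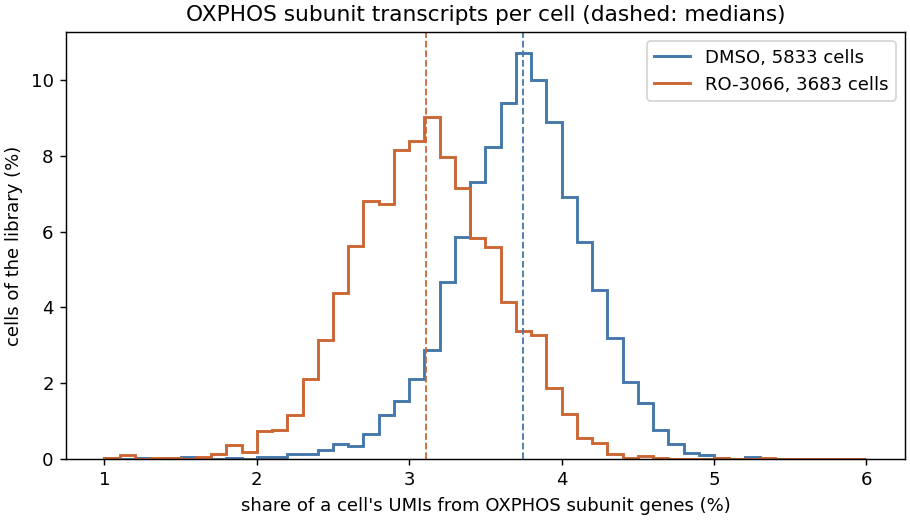
Share of each cell's UMIs that came from member genes (horizontal axis, %) against the percentage of the library's cells (vertical axis), for 5833 DMSO and 3683 RO-3066 cells. The RO-3066 distribution is shifted to the left and overlaps that of DMSO, with a median of 3.11% against 3.74% in DMSO (dashed lines).

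Complexes I, III, IV and V were correlated from cell to cell. Over thinned cells the UMIs of complexes I and V had a Pearson correlation of 0.53 in 5749 DMSO cells and 0.66 in 3559 RO-3066 cells, those of I and IV 0.48 and 0.58, and those of III and V 0.42 and 0.53. Complex II, with few UMIs, had correlations with the other sets between 0.06 and 0.13. These cells share a library and a fixed total, and the values are descriptions.

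Complex I oxidizes NADH. Its summed share of UMIs was 1.07% in DMSO and 0.931% in RO-3066, a fold of 0.868, and the median of its 37 genes was -0.21 (-0.29 to -0.16). At least 1.2-fold lower were 14 of 37 (all genes 16.1%), and none was 1.2-fold higher (all genes 18.7%). Among them was Ndufab1, the mitochondrial acyl carrier protein, at 473 CPM in DMSO and 337 CPM in RO-3066 (fold 0.713, 0.705 to 0.721). Ndufb2, an accessory subunit of the membrane arm, had 279 and 201 CPM, and Ndufs6, an accessory subunit of the matrix arm, 273 and 200.1 CPM. These were the 3 lowest ratios in the complex.

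Of the 3 complex I members with the most UMIs, Ndufb9 and Ndufb1-ps stood near 0. Ndufa2, with a log2 ratio of -0.21, stood at the median of the complex. The next in level, Ndufc1 and Ndufab1, had -0.37 and -0.49. Ndufb9, an accessory subunit of the membrane arm, had 564 CPM in DMSO and 569 in RO-3066, and Ndufb1-ps, annotated as a noncoding gene, 467 and 467 CPM. Ndufa2 had 468 and 405 CPM. The highest ratios were those of Ndufa13 (348 and 393 CPM, log2 ratio 0.18), also known as GRIM-19, and of Ndufs4 (168 and 174 CPM, log2 ratio 0.05), whose loss causes a mouse model of Leigh syndrome. Ndufa13 overlaps Yjefn3 on its own strand, so its reads may be shared.

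Complex II, succinate dehydrogenase, is also an enzyme of the citrate cycle. Its share of UMIs was 0.0459% with DMSO and 0.0398% with RO-3066 (fold 0.866). Sdha, the flavoprotein that oxidizes succinate, had 108 CPM with DMSO and 88.3 CPM with RO-3066. The iron-sulfur subunit Sdhb had 188 and 158 CPM, and the membrane anchor Sdhd 109 and 92.6 CPM. The other anchor, Sdhc, was the exception with 54.0 and 58.8 CPM (log2 ratio 0.12, fold 1.09, 1.06 to 1.12).

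Complex III passes electrons from ubiquinol to cytochrome c. Its 9 members all had log2 ratios below 0 (all genes 51.0%), the median being -0.28 (-0.36 to -0.07). Lower by 1.2-fold or more were 6 (all genes 16.1%). The fold of the sum was 0.837. Uqcrfs1, the Rieske iron-sulfur protein, had 181 CPM in DMSO and 139 CPM in RO-3066 (log2 ratio -0.38). Uqcr10 had 698 and 542 CPM, Uqcrb 632 and 509 CPM, and Uqcr11 719 and 591 CPM. The catalytic cytochrome c1 gene Cyc1 had 215 and 175 CPM. The smallest differences were those of the hinge protein Uqcrh (657 and 628 CPM, log2 ratio -0.06) and the core protein Uqcrc1 (136 and 129 CPM, log2 ratio -0.07).

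Cycs encodes somatic cytochrome c, the mobile carrier that also triggers caspase activation when it leaves mitochondria. It lies on chromosome 6 at 50562563 to 50566538 (mm10) and had 381 CPM in DMSO and 253 CPM in RO-3066, a fold of 0.665 (0.657 to 0.674). Its log2 ratio of -0.59 lies at the edge of the 1.5-fold limit, and under median-ratio scaling no member passed it. By UMIs per cell the direction was not the same throughout. Below 15000 UMIs (452 DMSO and 353 RO-3066 cells) Cycs was higher in RO-3066, with 193 CPM in DMSO and 209 CPM in RO-3066. From 15000 to 25000 the levels were 321 and 206 CPM, from 25000 to 40000 they were 390 and 215 CPM, from 40000 to 60000 they were 456 and 244 CPM, and above that 451 and 286 CPM. In cells called G1 the levels were 205 and 141 CPM, in cells called S 372 and 237 CPM, and in cells called G2M 392 and 258 CPM, so that RO-3066 was lower in each phase.

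Complex IV, cytochrome c oxidase, gave 0.999% of DMSO and 0.860% of RO-3066 UMIs, a fold of 0.861. Over its 14 measured genes the median was -0.20 (-0.32 to 0.32), with 5 at least 1.2-fold lower (all genes 16.1%) and 3 at least 1.2-fold higher (all genes 18.7%, so that 3 of 14 is near the background). Cox5b had 814 CPM in DMSO and 591 CPM in RO-3066 (log2 ratio -0.46). Cox7c had 1466 and 1170 CPM, Cox8a 1470 and 1178 CPM, and Ndufa4 1220 and 1052 CPM. Cox4i1, the common form of the regulatory subunit 4, went the other way with 754 and 848 CPM (log2 ratio 0.17). All 3 genes that were at least 1.2-fold higher were alternative isoforms: Cox6b2, Cox4i2 and Cox7a1.

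Cox6b2 encodes a form of subunit 6B known from testis. It lies on chromosome 7 at 4751792 to 4753094 (mm10) and had 20.9 CPM in DMSO and 48.0 CPM in RO-3066, a fold of 2.29 (2.21 to 2.39). The common form Cox6b1 had 758 and 661 CPM, so Cox6b2 gave 2.68% of the pair's UMIs in DMSO and 6.77% in RO-3066 (6.62% to 6.91%). At 10000 UMIs per cell, 20.8% of DMSO cells and 36.8% of RO-3066 cells had a Cox6b2 UMI, and without thinning 42.7% and 73.9% did. No cell type that lacks Cox6b2 was defined in these libraries, so the part of free RNA in these shares was not tested. The most UMIs in a cell were 13 and 38, and the 1% of cells with the most held 7.97% and 9.84% of its UMIs. In cells called G1 the levels were 45.5 and 121 CPM, in S 21.6 and 45.9 CPM, and in G2M 19.6 and 46.7 CPM. By UMIs per cell they were 42.8 and 86.4 CPM below 15000, 27.1 and 68.1 CPM from 15000 to 25000, 19.7 and 58.8 CPM from 25000 to 40000, 17.0 and 56.1 CPM from 40000 to 60000, and 12.2 and 33.8 CPM above. RO-3066 was higher in each of these bins and phases.

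Cox4i2, the form of subunit 4 known from lung and from low oxygen, had 27.4 CPM in DMSO and 34.4 CPM in RO-3066 (log2 ratio 0.32), or 3.50% and 3.90% of the Cox4i pair. The direction differed with phase and UMIs per cell. In cells called G1 the levels were 63.0 CPM in DMSO and 41.7 CPM in RO-3066, in S 32.4 and 49.1 CPM, and in G2M 23.8 and 32.4 CPM, and with phases at equal weight the log2 ratio was 0.05. Below 15000 UMIs Cox4i2 was lower in RO-3066, with 58.5 and 47.3 CPM, while above 60000 UMIs it had 6.42 and 22.0 CPM. Cox7a1, the form of heart and skeletal muscle, had 5.11 and 6.65 CPM, or 0.752% and 1.18% of the pair with Cox7a2. Its log2 ratio of 0.32 was 0.01 with every cell given the same weight and -0.02 among cells of 15000 to 40000 UMIs. In cells called G1 it rested on 25 and 9 UMIs, at 6.54 and 3.87 CPM, and in cells above 60000 UMIs the levels were 5.17 and 8.46 CPM.

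The 5 members below 5 CPM were all isoforms of complex IV genes. Cox8b and Cox8c had no UMI in either library, which allows up to 0.0173 CPM in DMSO and 0.0184 CPM in RO-3066. Ndufa4l2, known as a target of hypoxia-inducible factors, had 2 UMIs in DMSO and 1 in RO-3066. Cox7b2 had 1 and 3, and the muscle form Cox6a2 had 5 and 7, beside 57585 and 46670 UMIs of Cox6a1. A difference in these genes was not detectable at this depth.

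Complex V held the most UMIs of any complex, with 1.2% of the total in DMSO against 1.02% in RO-3066 (fold 0.851). Its 17 members all had log2 ratios below 0 (all genes 51.0%), the median being -0.26 (-0.31 to -0.19). Lower by 1.2-fold or more were 9 (all genes 16.1%). Atp5g1, 1 of 3 genes for an identical mature subunit c of the rotor ring, had 903 CPM in DMSO and 666 CPM in RO-3066 (fold 0.738, 0.732 to 0.744). The paralog Atp5g2 had 1135 and 954 CPM, and Atp5g3 488 and 403 CPM. Atp5g1 thus gave 35.7% of the trio's UMIs in DMSO and 32.9% in RO-3066, and Atp5g2 gave 44.9% and 47.2%. Atp5md had 591 and 462 CPM, and Atp5c1, the gamma subunit of the central stalk, 422 and 335 CPM. At the other end, Atp5e, the epsilon subunit, had 1257 and 1219 CPM (log2 ratio -0.05) and Atp5l 838 and 795 CPM (-0.08). The ratio of Atp5e was 0.03 with ribosomal protein genes out of the total. Atp5j2 had 881 and 772 CPM.

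Reads of a member and of a gene on the opposite strand could be mixed where counting did not use strand, which the sources used here do not state. Such an overlap is annotated for 28 of the 87 members, among them Ndufb2, Ndufs6, Ndufa2, Ndufb1-ps, Ndufa3, Uqcrb, Cox4i1, Cox5a, Atp5f1, Atp5md and Atp5l. Cycs, Ndufab1, Cox5b, Cox6b2, Cox4i2 and Atp5g1 have none.

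To follow members with megakaryocyte priming, cells were ranked by the share of their UMIs that came from Pf4, the chemokine of megakaryocytes and platelets, and put in 6 classes. The limits were percentiles 20, 40, 60, 80 and 95 of DMSO cells, which were Pf4 shares of 0.0175%, 0.0357%, 0.0949%, 0.382% and 1.38%. The classes held 1167, 1166, 1167, 1166, 875 and 292 DMSO cells and 1120, 778, 633, 558, 448 and 146 RO-3066 cells. Pf4 itself was taken out of the totals. Cells of a class are matched by Pf4 share only. In each class, RO-3066 cells held more of the other megakaryocyte markers. Their summed level was 887 against 601 CPM in DMSO in class 1, and 4919 against 3795 CPM in class 6. Ranked by those markers, the lowest class held 1167 DMSO and 234 RO-3066 cells.

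Members took a larger share of UMIs at the top of the Pf4 range, in RO-3066 more than in DMSO. In DMSO the share was 3.69%, 3.66%, 3.71%, 3.79%, 3.85% and 3.94% from the lowest to the highest class. In RO-3066 it was 3.07%, 3.01%, 3.04%, 3.20%, 3.44% and 3.71%. It was flat over the 3 lowest classes of both libraries and higher in each class above. UMIs per cell moved with it: the median UMIs per cell went from 21288 to 70524 in DMSO and from 24958 to 91706 in RO-3066, and the share of cells called G2M from 54.2% to 73.7% and from 78.0% to 94.4%. The share of ribosomal protein genes went from 30.7% to 27.3% in DMSO and from 32.6% to 31.7% in RO-3066. Among DMSO cells of 15000 to 40000 UMIs the member share was 3.72% in class 1 (1010 cells) and 4.14% in class 6 (70 cells). Among RO-3066 cells in that range it was level over the first 4 classes, at 3.05%, 2.99%, 2.97% and 3.07%. The 3.26% and 3.65% of classes 5 and 6 rest on 18 and 15 cells, under the minimum of 20 used for medians.

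**Figure D3:**
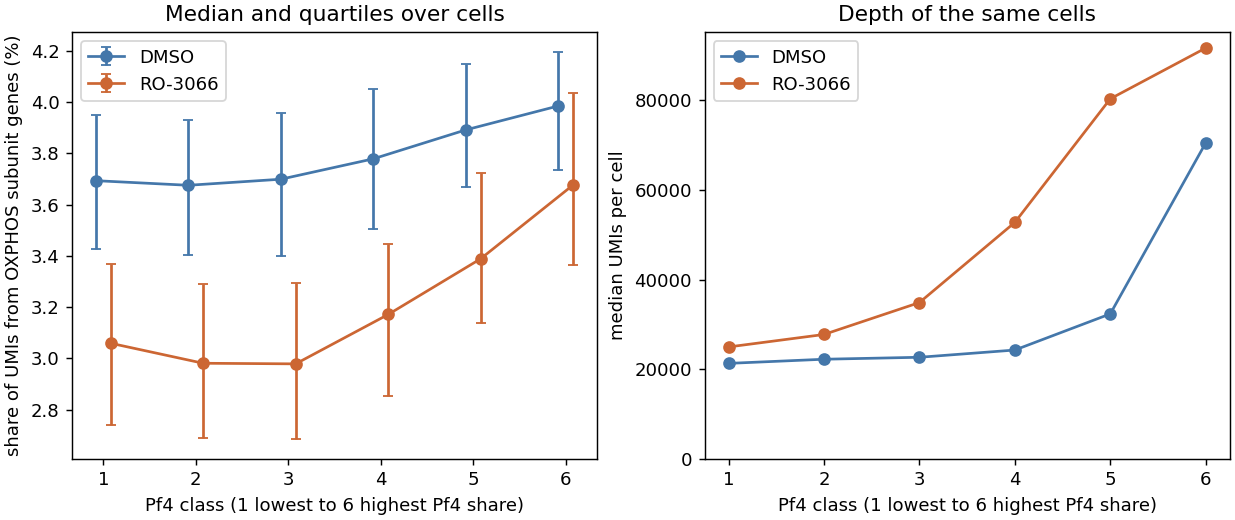
Left, the share of UMIs from member genes per cell (median and quartiles over cells, %) by Pf4 class from 1, the lowest, to 6, the highest, in DMSO and RO-3066. Right, the median UMIs of the same cells; both the member share and the UMIs per cell are highest in class 6, where the member shares of the libraries lie closest.

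Gene by gene, the difference between the highest and the lowest Pf4 class was small in DMSO. The members' median log2 ratio there was 0.05 (0.00 to 0.11), where that of all genes was -0.01. At least 1.2-fold higher were 9 of 82 members, where 27.1% of all genes were, and at least 1.2-fold lower were 9, where 27.8% were. With ribosomal protein genes out of the total the median was -0.015. In RO-3066 the members' median was 0.19 (0.11 to 0.28) and that of all genes -0.12. There 33 members were at least 1.2-fold higher (all genes 22.3%) and 2 were lower (all genes 38.0%). By complex, the RO-3066 medians were 0.11 for I, -0.07 for II, 0.29 for III, 0.32 for IV and 0.28 for V, and the DMSO medians 0.04, -0.03, 0.06, 0.10 and 0.03. When cells were instead classed by the other megakaryocyte markers, the RO-3066 median was 0.10. Among cells called G2M alone the medians were 0.04 in DMSO and 0.18 in RO-3066.

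In both libraries 49 members were higher in the highest class and 16 lower, where 33.0% and 43.3% of all genes were. At 1.2-fold, 8 were higher in both, namely Atp5f1, Atp5k, Cycs, Ndufa3, Cox5a, Atp5g1, Ndufv3 and Atp5md. That is a smaller share than the 16.7% of all genes that were. Cox5a, a subunit on the matrix side of complex IV, went from 697 to 967 CPM in DMSO and from 534 to 1058 CPM in RO-3066 (folds 1.39 and 1.98). Ndufv3, an accessory subunit of the NADH-oxidizing module, went from 326 to 464 CPM and from 261 to 499 CPM. Atp5f1, subunit b of the peripheral stalk, went from 619 to 984 CPM and from 505 to 763 CPM. Ndufa3 went from 323 to 411 CPM and from 288 to 520 CPM. Cycs went from 324 to 461 CPM and from 221 to 309 CPM. For all 5 of these genes, the level in each library was highest in class 6. Apart from Cycs, they were named for their high ratio of class 6 over class 1, so this peak is no independent observation.

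Lower in the highest class by 1.2-fold in both libraries were 2 of the 82 members, Cox4i2 and Cox6b2, where 21.7% of all genes were. Cox4i2 had 49.1, 44.9, 41.4, 22.3, 9.26 and 4.22 CPM from the lowest to the highest class in DMSO, and 59.3, 55.4, 42.4, 25.2, 15.0 and 10.9 CPM in RO-3066. Its fold of highest over lowest was 0.0860 (0.0695 to 0.105) and 0.184 (0.155 to 0.216). Cox6b2 had 26.9, 24.3, 24.9, 23.8, 14.7 and 12.9 CPM in DMSO and 61.4, 60.9, 58.2, 47.3, 31.5 and 31.8 CPM in RO-3066. Each RO-3066 value of Cox6b2 lay above every DMSO value. Smaller differences in the same direction were those of Uqcrfs1, from 195 to 146 CPM and from 142 to 132 CPM, and Ndufv1, the NADH-binding flavoprotein, from 99.7 to 80.8 CPM and from 84.2 to 77.0 CPM.

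Because cells with more Pf4 had more UMIs, 7 of the same genes were compared among cells of 15000 to 40000 UMIs. The 2 highest classes were pooled against the lowest. Uqcrfs1 and Ndufv1 are not given in this range. In DMSO (634 against 1010 cells) Cox4i2 had 9.90 against 48.9 CPM (fold 0.202, 0.171 to 0.238), and in RO-3066 (33 against 788 cells) 14 against 59.2 CPM (fold 0.236, 0.129 to 0.398). The folds of Cox6b2 were 0.661 and 0.561. Those of Cycs were 1.32 and 1.34, of Cox5a 1.17 and 1.45, of Ndufv3 1.38 and 1.62, of Atp5f1 1.33 and 1.13, and of Ndufa3 1.17 and 1.64. All 7 genes kept their direction in both libraries, and the RO-3066 values of the pooled classes rest on 33 cells. Apart from Cycs, they had been named for the same sign in both libraries, in cells that include these. Their agreement here is therefore no independent check.

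**Figure D4:**
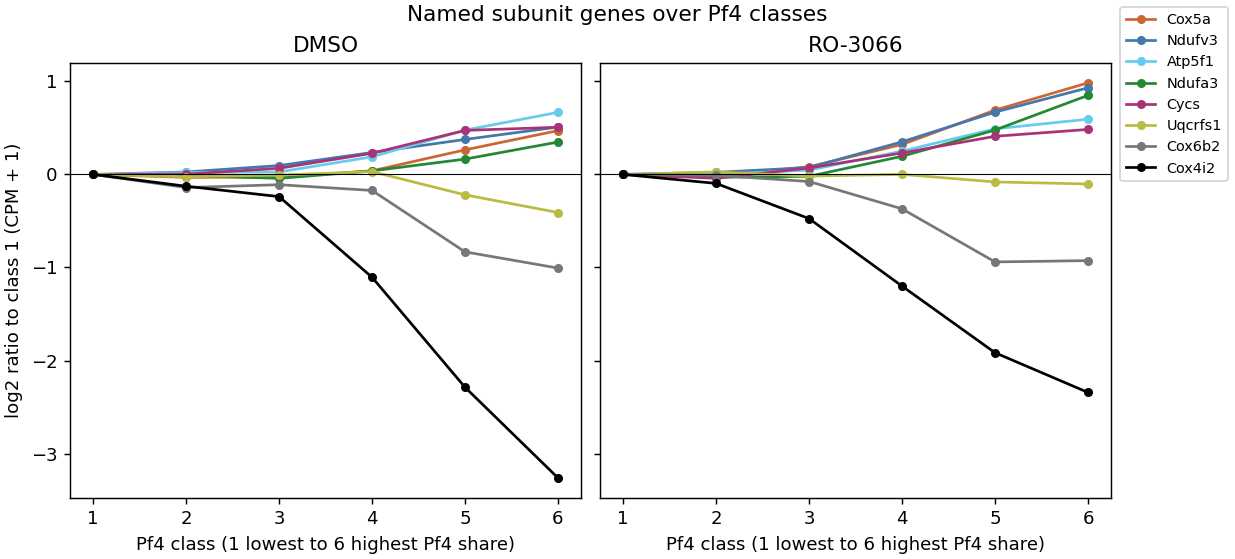
Log2 ratio to Pf4 class 1 (CPM plus 1) of 8 named member genes over the 6 Pf4 classes, in DMSO on the left and RO-3066 on the right, each line a gene. Cox5a, Ndufv3, Atp5f1, Ndufa3 and Cycs are highest in class 6 of each library, and Cox6b2 and Uqcrfs1 are lower there. Cox4i2 lies furthest from 0 there, at -3.26 in DMSO and -2.34 in RO-3066. Apart from Cycs, the genes shown were named for their ratio of class 6 over class 1.

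Over all kept cells, the difference between treatments was smaller in the classes with the most Pf4, which also had the most UMIs per cell. Within the classes, the members' median log2 ratio of RO-3066 over DMSO was -0.27, -0.29, -0.28, -0.25, -0.19 and -0.12 from the lowest to the highest class. That of all genes was 0.02, 0.01, 0.02, -0.01, -0.04 and -0.08. With a minimum mean of 20 CPM, members had -0.27 in class 1 and all genes -0.02. In class 6 both had -0.13. A minimum does not match genes by level, and at 5 CPM members there had -0.12 and all genes -0.08. In the lowest class 42 members were at least 1.2-fold lower (all genes 13.0%), and in the highest 15 were (all genes 30.5%). From the lowest to the highest class the log2 ratio of a member was higher by a median of 0.17 (0.12 to 0.22). It was higher for 65 of 82 members, against 39.9% of all genes. This step was 0.32 for complex IV, 0.24 for III, 0.17 for I, 0.16 for V and 0.04 for II. Classed by the other megakaryocyte markers, the highest class had a median of -0.18, and thinned to 10000 UMIs it had -0.16. Among cells of 15000 to 40000 UMIs the difference did not become smaller over the classes with enough cells, with medians of -0.29, -0.30, -0.34 and -0.35 in classes 1 to 4. Classes 5 and 6 held 18 and 15 RO-3066 cells in that range and gave no median.

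The ratio of Cycs was nearly the same in all classes. Its log2 ratio was -0.55, -0.60, -0.55, -0.55, -0.61 and -0.57 over the classes. Ndufab1 likewise stayed between -0.46 and -0.51. By contrast, Cox5b went from -0.56 in the lowest class to -0.24 in the highest, Cox5a from -0.38 to 0.13, Ndufv3 from -0.32 to 0.10, Ndufa3 from -0.16 to 0.34 and Cox4i1 from 0.09 to 0.41. Cox6b2 was higher in RO-3066 in every class, with log2 ratios between 0.96 and 1.29.

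**Figure D5:**
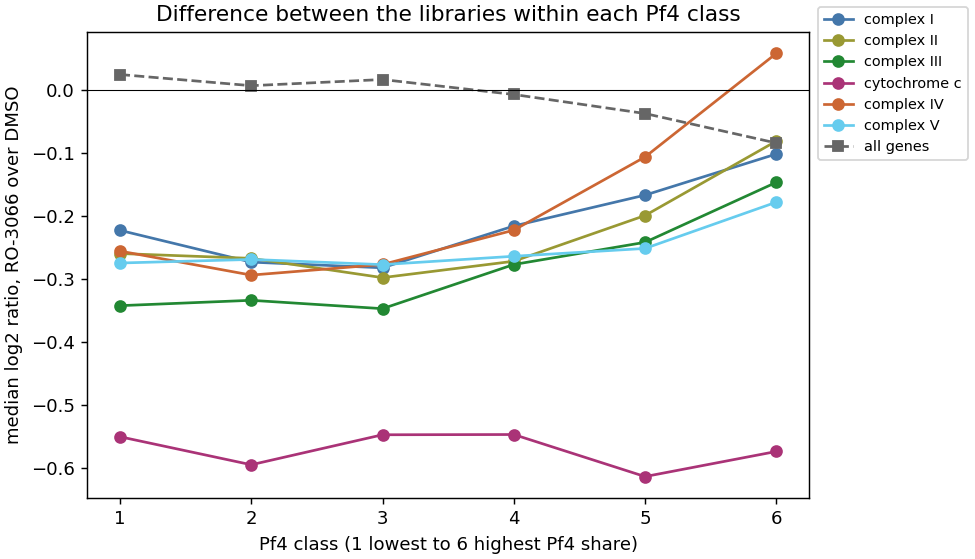
Median log2 ratio of RO-3066 over DMSO within each Pf4 class, by complex (coloured lines) and for all genes (dashed grey). Complexes I to V come nearer to 0 in classes 5 and 6, complex IV reaching 0.06, while cytochrome c stays between -0.55 and -0.61 and all genes move from 0.02 to -0.08.

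Cell cycle phase and UMIs per cell were followed in the same way. In cells called G1 (245 DMSO and 94 RO-3066) the members' median was -0.28, in S (2046 and 529) -0.29 and in G2M (3458 and 2936) -0.24, so the difference was present in each phase. At 1.2-fold, 43, 44 and 35 of 82 members were lower in the 3 phases, where 25.5%, 14.9% and 18.1% of all genes were. By UMIs per cell it was -0.18 below 15000, -0.29 from 15000 to 25000, -0.34 from 25000 to 40000, -0.28 from 40000 to 60000 and -0.17 above. In DMSO the member share was nearly level over the cells above 15000 UMIs, between 3.75% and 3.79%. In RO-3066 it was 3.04%, 3.02%, 3.13% and 3.38% in the same bins.

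Lists of other nuclear genes for mitochondria also had medians below 0. At 1.2-fold, 16.1% of all genes were lower and 18.7% higher, against which the counts of each list stand. The median log2 ratio was -0.17 over 48 assembly factors of the complexes (12 at least 1.2-fold lower, 3 higher), with Coa6, an assembly factor of complex IV, at 53.2 CPM in DMSO and 38.5 CPM in RO-3066. Over 78 mitochondrial ribosomal protein genes it was -0.23 (34 lower, 1 higher) and over 23 protein import genes -0.31 (13 lower, 0 higher), among them the translocase subunit Timm23 with 237 and 175 CPM. Over 23 genes of the citrate cycle and pyruvate entry it was -0.24 (11 lower, 0 higher). The lowest there was Pdk1, the kinase that inhibits pyruvate dehydrogenase, with 46.4 and 22.1 CPM (fold 0.477, 0.459 to 0.496). Fumarate hydratase, Fh1, had 91.6 and 63.6 CPM.

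The 6 carriers and porins had a median of -0.27 (4 lower, 0 higher), with the outer membrane channel Vdac3 at 302 and 225 CPM and the ADP/ATP carrier Slc25a5 at 852 and 681 CPM. The 7 mitochondrial antioxidant enzymes had -0.22 (3 lower, 0 higher), with the superoxide dismutase Sod2 at 188 and 156 CPM. Over 14 regulators of respiratory genes it was -0.13, and the 2 that were lower and 0 higher are no larger a share than the 16.1% and 18.7% of all genes, with Gabpa, a subunit of nuclear respiratory factor 2, at 22.8 and 17.8 CPM. Its gene overlaps Atp5j on the opposite strand.

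The subunits encoded by the mitochondrial genome went the other way as a sum. Their share of UMIs was 1.55% in DMSO and 1.71% in RO-3066, and the median of the 13 genes was 0.10 (-0.26 to 0.20). Per nuclear member UMI there were 0.411 mitochondrially encoded UMIs in DMSO and 0.531 in RO-3066. mt-Nd1, a core subunit of complex I, had 1063 and 1370 CPM, while mt-Atp8 of complex V had 203 and 130 CPM. The median share of UMIs from mitochondrial genes was 1.49% in DMSO and 1.70% in RO-3066 cells. The part of this in the ratio was not tested.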

How the data were processed

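The values deposited by the authors are raw UMI counts, 1 sparse matrix of genes by barcodes per library, per the file headers and the whole numbers they hold. Reads were processed with Cell Ranger 5.0.1 on mm10, per the submitters' processing notes, while the matrix headers name Cell Ranger 7.1.0. The sources used here give neither the annotation release nor the treatment of intron reads. Reads of overlapping or near-identical genes can be mixed or lost in such counting.

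Cells needed 1000 UMIs, 500 genes and a mitochondrial share of no more than 10%, and 26 DMSO and 84 RO-3066 barcodes failed this. Likely doublets, scored among 50 neighbours with simulated doublets and called at 0.8% per 1000 barcodes, were removed (301 DMSO cells, 4.91%, and 115 RO-3066 cells, 3.03%). UMIs were summed over kept cells and scaled to CPM. Log2 ratios used a pseudocount of 1 CPM, and counts and medians genes with a mean of at least 5 CPM. No test was possible with 1 library for each group, and folds of 1.5 and 1.2 were counted. Shares have exact Clopper-Pearson intervals, folds exact conditional Poisson intervals and medians exact binomial intervals over genes, at 95%. UMIs amplified by PCR are counted once, so the intervals of shares and folds cover counting error only. The floor of detection is 3 counts. Phases were scored with scanpy 1.11.5 on cells thinned to 10000 UMIs. Python 3.11.15, numpy 2.4.6, scipy 1.17.1, pandas 2.3.3 and scikit-learn 1.9.0 were used. Gene coordinates are from GENCODE vM21 (mm10), in which 32158 of 32285 identifiers were found, and promoters from RefSeq. The calculation was tested on simulated data.

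The members and gene lists were chosen with earlier results of these data known. Named are, among members with a mean of at least 20 CPM, the 3 highest in level, the 3 lowest and the 2 highest in ratio of each complex, every member past 1.5-fold, tissue isoforms, and the 4 highest and 4 lowest in the Pf4 comparison with the same sign in both libraries. Of each other list, genes among its 3 largest differences are named. Cyc1, Atp5k and Ndufs5 were chosen after their values were seen. Alternatives were median-ratio scaling, a total without ribosomal protein genes, equal weight per cell, thinning, doublets or all barcodes kept, a mitochondrial limit of 5%, phases with equal weight or alone, cells of 15000 to 40000 UMIs, Pf4 classes with equal weight, without the highest class, by percentiles of each library or by other megakaryocyte markers, a pseudocount of 5, and minimum levels of 20 CPM or none. G1 cells alone, bins of UMIs per cell, the shorter NRF1 form and the cyclic AMP response element were added after the data were seen.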

Additional observations from a re-analysis of the deposited data

How the results depend on the processing

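The median log2 ratio of the members stayed below 0 under all alternatives tried. It was -0.17 with ribosomal protein genes out of the total, -0.29 in cells called S, -0.31 in cells of 15000 to 40000 UMIs, and -0.18, -0.29, -0.34 and -0.17 in cells of 1000 to 15000, 15000 to 25000, 25000 to 40000 and at least 60000 UMIs. The count of members at least 1.5-fold lower, 1 as reported, was 0 under median-ratio scaling, without ribosomal protein genes, with equal weight per cell, thinned, with doublets or all barcodes kept, with Pf4 classes at equal weight, without the highest Pf4 class and with a pseudocount of 5; Cycs lies at that limit. It was 4 in cells of 15000 to 40000 UMIs, 4 in cells called G1, 3 in cells of 15000 to 25000, 4 of 25000 to 40000 and 2 of 40000 to 60000 UMIs. At 1.2-fold, 36 members became 16 without ribosomal protein genes, where the median of all genes was 0.06. The share of all genes past 1.5-fold is not given for these settings, nor that past 1.2-fold without ribosomal protein genes. These counts therefore show only how the calls depend on the setting, not a difference of members from other genes.

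Without ribosomal protein genes the medians of complex I and cytochrome c were -0.14 and -0.51. In cells of 15000 to 40000 UMIs complexes I, III and V and cytochrome c had -0.30, -0.41, -0.33 and -0.75, and in cells called S complexes II and V and cytochrome c had -0.32, -0.32 and -0.65. Thinned, complex II and cytochrome c had -0.30 and -0.57, and with phases at equal weight -0.29 and -0.61. The member share was 3.73% and 3.10% with equal weight per cell, 3.74% and 3.12% thinned, 3.75% in DMSO with doublets kept, and 5.34% and 4.80% of UMIs other than ribosomal protein genes, in DMSO and RO-3066.

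The median of the highest over the lowest Pf4 class in DMSO was -0.015 without ribosomal protein genes, the opposite direction, and 0.12 in cells of 15000 to 40000 UMIs. In RO-3066 it was 0.10 with classes by other megakaryocyte markers. Within classes 2, 4, 5 and 6 so defined, RO-3066 over DMSO was -0.24, -0.30, -0.26 and -0.18. Class 6 was -0.16 thinned. Classes 3 and 4 were -0.34 and -0.35 in cells of 15000 to 40000 UMIs, where RO-3066 classes 5 and 6, with 18 and 15 cells, were under the minimum of 20 cells and gave no value. Without ribosomal protein genes classes 2 to 6 were -0.23, -0.22, -0.17, -0.10 and -0.031, where all genes in class 6 had 0.00. With a minimum mean of 20 CPM, class 6 was -0.13 for members and -0.13 for all genes. Where no value above shows it, the cause was not tested. No paired analysis was possible because each group has 1 library.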

Other observations

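Outside the member rule, 2 genes of the same machinery were looked up by name, and both had ratios above 0. They are not the only such genes. Below 0 were 40 of 48 assembly factors, a list that includes Cox7a2l, and 5 of 13 mitochondrially encoded subunits (all genes 51.0%). Cox7a2l, a factor of supercomplex assembly related to the subunit 7A genes, had 222 CPM in DMSO and 292 CPM in RO-3066 (fold 1.32, 1.30 to 1.34). Atpif1, the inhibitor of ATP hydrolysis by complex V, had 1252 and 1350 CPM (fold 1.08, 1.07 to 1.09).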
